A study of Mus musculus with 6 samples.

Results

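The interferon-stimulated genes are the transcripts that cells switch on when an interferon reaches its receptor, and 37 of them were followed here by symbol among the 33696 genes counted in single-cell RNA sequencing of the mouse posterior eye. The members were a named list, drawn up with earlier results of these data known and not by a cutoff on these counts. Shares of members set beside shares of all genes are therefore a description, not a test. The 37 members comprised 4 transcription factors (Irf1, Irf7, Irf9, Stat2), 6 genes of the IFIT and ISG15 system (Isg15, Usp18, Ifit1, Ifit2, Ifit3, Ifit3b), 4 sensors of foreign nucleic acid and their regulators (Ifih1, Dhx58, Zbp1, Trim25), 8 antiviral effectors (Oasl2, Oas1a, Mx1, Mx2, Rsad2, Bst2, Ifitm2, Ifitm3), 6 guanylate-binding proteins and Rnf213 (Gbp2, Gbp3, Gbp4, Gbp5, Gbp6, Gbp7, Rnf213), 3 genes of antigen processing (Psmb8, Psmb9, Tap1) and 5 others (Parp9, Parp14, Xaf1, Rtp4, Ifi44). One group of 12 mice received drops of tropicamide, a muscarinic receptor blocker that relaxes the ciliary muscle, every 10 min for 6 drops, and then waited 1 h. The other group of 12 mice received saline drops at the same frequency, and the labels describe its ciliary muscle as contracted. For saline, the number of drops and the wait are not recorded. In both groups the right eyes were pooled 4 to a library, which gave 3 libraries per group, and the lens, cornea and iris with ciliary body were removed so that sclera, choroid and retina stayed. No strain, age or sex of the mice is recorded in the labels. The study asked about ciliary muscle contraction in myopia. Here tropicamide was compared with saline in 4 tissues: surface epithelium, stroma, vessels and glia.

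Interferons are secreted proteins that signal through receptors and JAK kinases to STAT proteins. Type I interferons lead to a complex with Stat2 and Irf9 that binds the interferon-stimulated response element (ISRE), whereas interferon gamma acts through the gamma-activated site (GAS) and drives Irf1. Many of these genes also have a baseline level in healthy barrier tissue, endothelium and stroma, and Irf1 responds to other inflammatory signals as well.

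The promoters of the genes on which the results turn are shown first, because they carry these 2 elements. RefSeq (build GRCm38.p6) gave the bases around the transcription start for 27 of the 37 members. No entry was there for Mx1, Mx2, Usp18, Dhx58, Parp9, Parp14, Zbp1, Gbp4, Gbp6 or Rtp4. The letters GAAANNGAAA, an ISRE core, were searched on both strands in the window from 250 bases before to 50 bases after the start. They occurred in 15 of 27 members (55.6%) and in 3.99% of the 27025 genes in the table. The letters TTCNNNGAA, a GAS core that reads the same on both strands, occurred in 8 of 27 members (29.6%) and in 9.55% of all genes. Both were present in 5 members, Oas1a, Bst2, Ifitm3, Gbp5 and Gbp7, and neither in 9, among them Irf7. The 5 sequences that follow are the 250 bases before the start, written 5′ to 3′ on the gene's own strand, with the matched letters in capitals. A match is a description of the letters, not evidence of a bound factor.
Isg15, chr4:156200819-156201068, minus strand, with 3 overlapping ISRE cores between bases -78 and -57: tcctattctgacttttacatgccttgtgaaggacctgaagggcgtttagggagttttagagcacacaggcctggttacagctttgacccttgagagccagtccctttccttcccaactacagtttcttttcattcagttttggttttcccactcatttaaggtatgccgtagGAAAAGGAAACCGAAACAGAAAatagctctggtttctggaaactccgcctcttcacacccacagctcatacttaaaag
Ifit1, chr19:34640639-34640888, plus strand, with ISRE cores on the opposite strand at bases -104 to -95 and -85 to -76: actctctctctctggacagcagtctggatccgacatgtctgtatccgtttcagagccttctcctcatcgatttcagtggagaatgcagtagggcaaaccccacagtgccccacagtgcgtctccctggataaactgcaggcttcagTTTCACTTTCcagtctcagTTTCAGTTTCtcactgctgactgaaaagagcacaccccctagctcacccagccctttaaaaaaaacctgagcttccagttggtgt
Irf1, chr11:53769764-53770013, plus strand, with a GAS core at bases -90 to -82: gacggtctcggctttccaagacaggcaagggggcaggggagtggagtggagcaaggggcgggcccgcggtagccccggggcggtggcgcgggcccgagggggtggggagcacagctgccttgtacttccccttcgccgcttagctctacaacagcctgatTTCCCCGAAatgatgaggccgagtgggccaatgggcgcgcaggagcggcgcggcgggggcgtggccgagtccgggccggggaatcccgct
Gbp2, chr3:142620413-142620662, plus strand, with an ISRE core on the opposite strand at bases -59 to -50: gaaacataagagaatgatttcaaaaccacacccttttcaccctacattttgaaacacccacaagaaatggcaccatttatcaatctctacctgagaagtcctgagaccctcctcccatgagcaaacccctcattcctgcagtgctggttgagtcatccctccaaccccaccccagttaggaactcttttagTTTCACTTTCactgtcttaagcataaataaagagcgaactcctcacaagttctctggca
Ifitm2, chr7:140955962-140956211, minus strand, with an ISRE core at bases -46 to -37: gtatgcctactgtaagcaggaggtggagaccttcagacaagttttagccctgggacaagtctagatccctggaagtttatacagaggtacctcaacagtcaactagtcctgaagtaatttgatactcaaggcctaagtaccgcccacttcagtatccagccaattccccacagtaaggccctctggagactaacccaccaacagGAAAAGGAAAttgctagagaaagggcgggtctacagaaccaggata
Isg15 and Ifit1 thus share the ISRE letters, and Irf1 carries the GAS letters without the ISRE letters in this window. RefSeq lists another Irf1 start, preceded by chr11:53770223-53770472, and its window held neither set of letters.

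The 6 libraries held 66434 cell barcodes with 30761887 to 49477707 unique molecular identifiers (UMIs, 1 per captured RNA molecule) each, and 60096 cells were kept. Between libraries, 522 barcode sequences recurred. The surface epithelium was 1 cluster of 196 cells led by Krt12, Krt5 and Krt15, keratins of corneal and conjunctival epithelium, and was present although the cornea had been excised. It held 45, 26 and 38 cells in the saline libraries and 33, 40 and 14 in the tropicamide libraries. The stroma joined fibroblast-like cells, a Smoc1-expressing stromal class and a Wnt6-expressing stromal class, with 383 to 1098 cells per library. The vessels joined 1195 endothelial-like, 308 smooth muscle-like and 105 pericyte-like cells (73 to 419 per library in all), and the glia joined Müller glia-like and Schwann cell-like cells (71 to 152 per library). Counts were summed per library and tissue, levels are given as CPM (counts scaled to the total of that sum) after scaling of library composition, and changes are log2 values of tropicamide against saline with their standard error from edgeR's quasi-likelihood test. The levels of the program by cell class, the averages of Schwann cell-like cells and the sums of markers are plain CPM, without the scaling of composition. Each library is a pool of eyes, so the p-values measure the spread between pools. In each tissue and group, values are listed for libraries 1, 2 and 3 in that order.

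Among classes whose libraries all held 10 cells or more, endothelial-like, stromal and smooth muscle-like classes had the highest summed levels of this program. The summed level of the 37 members had a median over the 6 libraries of 5318 CPM in endothelial-like cells, 5229 CPM in the Smoc1 stromal class, 4577 CPM in smooth muscle-like cells and 4100 CPM in the Wnt6 stromal class. Below these came fibroblast-like cells with 3131 CPM, T or NK-like cells with 1176 CPM, Müller glia-like cells with 1052 CPM, surface epithelium with 1039 CPM and retinal pigment epithelium-like cells with 743 CPM. The retinal neurons were lowest, with 197 CPM in cone bipolar-like cells, 146 CPM in cones, 141 CPM in rods and 134 CPM in rod bipolar-like cells. Abundant members weigh most in such a sum. After tropicamide, and here with the scaling of composition, the 8 antiviral effectors gave a mean of 2827 of 5111 CPM in vessels and 2235 of 3432 CPM in stroma. Of the 37 members, 17 had their highest mean in endothelial-like cells, 11 in the Smoc1 class, 4 in smooth muscle-like cells, 4 in T or NK-like cells and 1 in the Wnt6 class. Irf7, the factor that amplifies type I interferon output, averaged 87.2 CPM in endothelial-like cells and 33.4 CPM in the next class, with no overlap between libraries. Ifit1, an RNA-binding inhibitor of viral translation, averaged 313 CPM in the Smoc1 class and 140 CPM in endothelial-like cells, again without overlap. Irf1 was highest in smooth muscle-like cells, at 951 CPM against 624 CPM in endothelial-like cells, without overlap. For Isg15, a ubiquitin-like protein that is attached to other proteins, endothelial-like cells (218 CPM) and the Smoc1 class (200.1 CPM) overlapped, and so did endothelial-like cells and the Wnt6 class for Ifitm3, a membrane protein that blocks viral entry (1655 and 1645 CPM). Psmb8, a catalytic subunit of the immunoproteasome, stood highest in T or NK-like cells at 175 CPM, followed by surface epithelium at 119 CPM, and these overlapped.

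**Figure D1:**
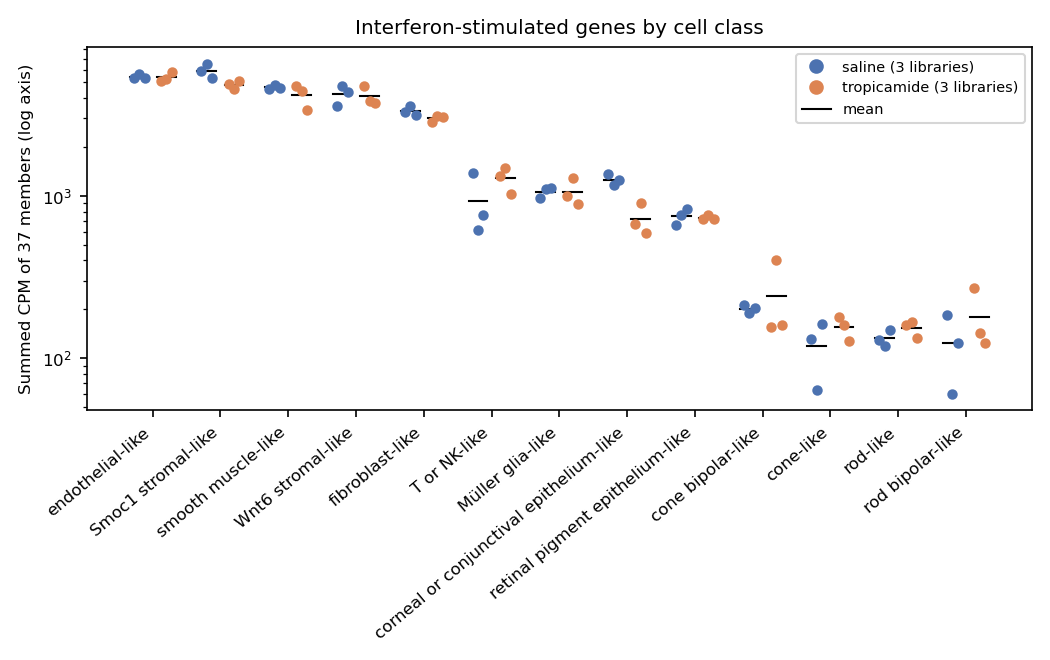
Summed level of the 37 interferon-stimulated genes in plain CPM (log axis) for each cell class with at least 10 cells in all 6 libraries, with 1 point per library (blue for saline, orange for tropicamide), lines at the group means and classes ordered by their median. Among these classes, endothelial-like and Smoc1 stromal cells stand at the top (medians 5318 and 5229 CPM) and rods and rod bipolar-like cells at the bottom (141 and 134 CPM). The surface epithelium is labelled corneal or conjunctival.

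In surface epithelium, Isg15 and Irf1 were lower after tropicamide, and the rest of the program gave no further call. Of 8462 genes tested, 85 passed (1.00%), of which 83 were lower and 2 higher (0.0236%). Of the members, 16 could be tested and 2 passed, both lower (0.981% of all genes were called lower). The change was below 0 for 14 of the 16 members, against 47.3% of all genes, and the median change was -0.61 for members and 0.02 for all genes. The low-count filter admits a gene that is high in only 1 group, for members and all genes alike. Isg15 and Irf7 passed it through their saline values, and 21 members were too low to enter this count. The summed level of all 37 members, as plain CPM and without a test, was 671, 910.2 and 595 CPM after tropicamide and 1369.5, 1167 and 1244 CPM after saline. The 3 tropicamide values lay below the 3 saline values without overlap for 5 members, Irf1, Irf7, Isg15, Oasl2 and Psmb8. Such a pattern in that direction held for 7.35% of all genes (15.2% in either direction), and the opposite pattern for 7.89% of all genes and for no member. The counts depended on single libraries: 6, 10 and 25 genes were called without tropicamide library 1, 2 and 3, and 55 and 181 without saline library 1 and 2. The members called were 1 without tropicamide library 1 or 2 and 6 without saline library 2.

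Isg15 stood at 8.12, 16.1 and 13.7 CPM in the tropicamide libraries and at 197, 172 and 176 CPM in the saline libraries. All 3 saline pools were high and close together, and all 3 tropicamide pools were low, with means of 12.7 ± 4.11 and 182 ± 13.2 CPM (SD, n = 3 each), a ratio of 14.4. The change was -3.85 ± 0.26 (edgeR, adjusted p = 0.0004915), and it passed with any 1 library left out (-4.19 to -3.57, edgeR, adjusted p up to 0.01108). These levels rested on 8, 17 and 5 UMIs after tropicamide and on 279, 95 and 210 UMIs after saline. The UMIs came from 6 of 33, 11 of 40 and 5 of 14 cells after tropicamide and from 19 of 45, 8 of 26 and 17 of 38 cells after saline. Rods, which made little Isg15, had a UMI in 0.0922% to 0.364% of cells per library, at median depths of 1956.5 to 2229 UMIs per cell against 10712 to 31166.5 in the epithelium. The saline signal was uneven between cells. The highest cell held 135 of 279 UMIs in saline library 1, 87 of 95 in saline library 2 and 33 of 210 in saline library 3, while no tropicamide cell held more than 4. When the highest cell of every library was taken out, Isg15 stood at 7.08, 13.7 and 12.3 CPM after tropicamide and at 99.8, 14.9 and 132 CPM after saline, here as plain CPM. Saline library 2 then lay next to the tropicamide libraries, and the call was lost (-3.15 ± 0.72, edgeR, adjusted p = 0.2748).

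Irf1, which binds ISRE-like sites and is itself induced by interferon gamma, stood at 35.5, 37.0 and 49.4 CPM after tropicamide and at 177, 120 and 193 CPM after saline. Every tropicamide pool lay below every saline pool, with means of 40.7 ± 7.64 and 163 ± 38.6 CPM (SD, n = 3 each). The change was -2.06 ± 0.25 (edgeR, adjusted p = 0.005493), and without the highest cell of each library it was -2.79 (edgeR, adjusted p = 0.001624). The call was lost without tropicamide library 1 (adjusted p = 0.08887) and without tropicamide library 2 (adjusted p = 0.08357, both edgeR). Irf7 stood at 11.2, 2.85 and 8.24 CPM after tropicamide and at 27.5, 23.6 and 65.4 CPM after saline. These did not overlap but rested on few molecules, 3 to 11 UMIs per tropicamide library, and the change of -2.46 ± 0.56 did not pass in edgeR (adjusted p = 0.1017) while DESeq2 called it (adjusted p = 0.006141). The changes of Stat2 (-0.56) and Irf9 (-0.08), partners in the type I complex, did not pass.

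Ifit1, whose product binds viral RNA, and its relative Ifit3 had few UMIs in this epithelium. Ifit1 stood at 2.03, 6.64 and 5.49 CPM after tropicamide and at 1.41, 0 and 4.20 CPM after saline, and Ifit3 at 5.07, 19.9 and 5.49 CPM and at 0, 7.26 and 8.39 CPM. Both overlapped between groups and were too low to be tested, as were 21 members in all, and Mx1 had no UMI in any library. The Ifit1 promoter shown above carries ISRE cores, as that of Isg15 does. Gbp4, an interferon gamma-induced GTPase, was seen only in saline libraries 1 and 3, with 9 and 55 UMIs, and was absent from the counts of the other 4 libraries.

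Among the other tested members, Psmb8 stood at 63.9, 64.5 and 115 CPM after tropicamide and at 146, 141 and 222 CPM after saline (-1.13 ± 0.28, edgeR, adjusted p = 0.1442). The groups did not overlap, and tropicamide library 3 lay closest to the saline pools. Oasl2, a 2'-5' oligoadenylate synthetase-like antiviral protein, stood at 25.4, 13.3 and 13.7 CPM against 26.8, 29.0 and 42.8 CPM (-0.87, edgeR, adjusted p = 0.4272). Trim25, the ubiquitin ligase that activates the RNA sensor RIG-I, stood at 41.6, 36.1 and 38.4 CPM against 138, 36.3 and 117 CPM, so saline library 2 lay with the tropicamide pools (-1.38, edgeR, adjusted p = 0.2417). Ifitm2 stood at 124, 167 and 110 CPM against 213, 194 and 152 CPM (-0.46 ± 0.22), and Ifitm3 at 112, 297 and 43.9 CPM against 244, 310 and 107 CPM (-0.47 ± 0.56), and both overlapped between groups. Gbp2, at 15.2, 9.49 and 5.49 CPM against 16.2, 9.07 and 24.3 CPM, and Rnf213, at 17.2, 19.9 and 5.49 CPM against 26.1, 5.44 and 17.6 CPM, overlapped as well (-0.66 and -0.18). The members closest to no change were Psmb9 (0.05), Ifih1 (0.04) and Irf9 (-0.08).

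**Figure D2:**
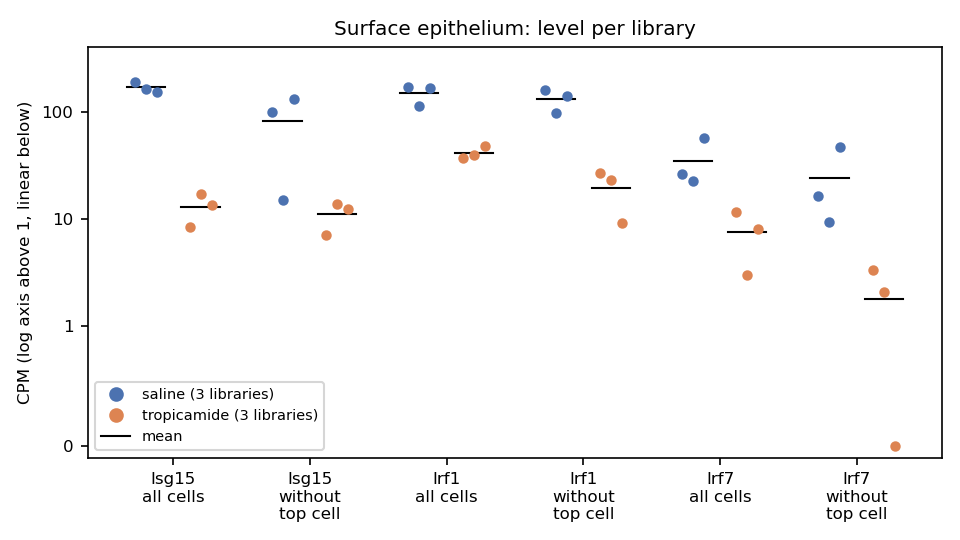
Levels of Isg15, Irf1 and Irf7 in surface epithelium in plain CPM (axis logarithmic above 1 and linear below), for all cells and without the cell that held most UMIs of that gene in each library. Each point is 1 library, blue for saline and orange for tropicamide, with a line at the mean, and 1 saline point of Isg15 drops to 14.9 CPM when that cell is taken out.

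From a wider list of 98 interferon pathway genes outside the 37, 42 could be tested in epithelium, 2 passed, both lower, and 28 were below 0. Of all genes, 0.981% were called lower and 47.3% were below 0. Socs3, the feedback inhibitor of JAK and STAT signalling, stood at 15.2, 16.1 and 5.49 CPM after tropicamide and at 258, 453 and 70.5 CPM after saline (-4.21 ± 0.67, edgeR, adjusted p = 0.02117). All tropicamide pools were low, and the saline pools were high but spread widely. H2-D1, a class I heavy chain that presents peptides, stood at 194, 232 and 288 CPM against 463, 473 and 701 CPM, without overlap (-1.21 ± 0.23, edgeR, adjusted p = 0.04496).

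Markers of other cells in the same epithelial sums also differed between groups. The summed level of 5 neutrophil markers was 0, 27.3 and 5.36 CPM after tropicamide and 316, 577 and 1499 CPM after saline. Nearly all of it was S100a9, a calcium-binding protein that stressed epithelium can also make, with 214, 291 and 1494 UMIs in 1 cell of each saline library. S100a8 reached at most 28 UMIs, Retnlg had 2 UMIs in all, and the defining markers Csf3r and Cxcr2 were at 0 in all 6 libraries. Summed macrophage markers stayed between 5.80 and 14.2 CPM and fibroblast markers between 100.1 and 345 CPM, and the list of 8 corneal and conjunctival markers between 38279 and 58716 CPM. One cell of tropicamide library 3 raised its erythrocyte markers to 17629 CPM. Some of the cells highest in Isg15 were the same cells. The highest Isg15 cell of saline library 2, with 87 Isg15 UMIs, held 291 S100a9 UMIs, the second-highest of saline library 1, with 73, held 214, and the highest of saline library 3, with 33, held 88. The highest of saline library 1, with 135 Isg15 UMIs, held 5. These 4 cells held 614, 465, 756 and 264 UMIs of the corneal and conjunctival markers, out of 41700, 45320, 43129 and 41094 UMIs in the cell. In the highest Isg15 cell of each tropicamide library the same markers reached 3226, 2053 and 3804 UMIs, out of 99181, 39151 and 48553. Those cells held only 2, 4 and 1 Isg15 UMIs, and in libraries 1 and 3 other cells tied with them. A tied cell of tropicamide library 1 held 2437 marker UMIs out of 43597. Tied cells of tropicamide library 3 held 4159 out of 55210 and 2445 out of 45548. The part of S100a9-bearing cells in the Isg15 and Irf1 differences was not tested.

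In stroma, no member passed, while nearly all leaned the same way by a small amount. Of 14890 genes 0 were called (0%), 1824 had an unadjusted p under 0.05 in edgeR, and DESeq2 called 205. Of 35 members tested, 0 were called by edgeR, 11 had an unadjusted p under 0.05, and DESeq2 called 4. The change was below 0 for 32 of 35 members, against 48.1% of all genes, and the median was -0.24 for members and 0.01 for all genes. In 13 members the tropicamide values lay below the saline values without overlap, a pattern seen in 9.15% of all genes. In no member did they lie above, as they did in 9.07% of all genes (18.2% in either direction). Oas1a and Gbp4 were too low to be tested.

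The guanylate-binding proteins, GTPases that attack vacuoles holding microbes, had, together with Rnf213, the lowest median of the 7 role groups (-0.43), with all 6 tested genes below 0. Gbp2 stood at 39.0, 36.5 and 53.9 CPM after tropicamide and at 77.6, 87.3 and 60.4 CPM after saline. The groups did not overlap, tropicamide library 3 and saline library 3 being the closest, and the means were 43.1 ± 9.41 and 75.1 ± 13.7 CPM (SD, n = 3 each). The change was -0.80 ± 0.17 (edgeR, adjusted p = 0.1596; DESeq2, 0.001895). Rnf213, a ubiquitin ligase that coats bacteria, stood at 109, 96.1 and 123 CPM against 138, 157 and 144.5 CPM (-0.43 ± 0.10, edgeR, adjusted p = 0.1868). Gbp5 (-0.58), Gbp7 (-0.43) and Gbp3 (-0.33) also did not overlap between groups, whereas Gbp6 (-0.15) did.

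Parp14, an ADP-ribosyltransferase of the antiviral response, stood at 43.9, 46.0 and 55.3 CPM after tropicamide and at 63.9, 64.6 and 66.9 CPM after saline. The saline pools were nearly equal and all above the tropicamide pools (-0.44 ± 0.10, edgeR, adjusted p = 0.171; DESeq2, 0.03305). Ifit1 stood at 83.7, 71.7 and 88.8 CPM against 104, 162 and 105 CPM (-0.60 ± 0.17, edgeR, adjusted p = 0.2279), so that saline library 2 stood apart upward. Irf1 stood at 236, 283 and 309 CPM against 321, 398 and 345 CPM (-0.36 ± 0.12, edgeR, adjusted p = 0.2676), again without overlap. Irf7 also did not overlap, at 19.0, 18.7 and 21.2 CPM against 21.8, 26.3 and 21.7 CPM, though the gap was narrow (-0.24 ± 0.11). Isg15 overlapped between groups at 62.6, 49.0 and 59.7 CPM and 71.4, 105 and 60.4 CPM (-0.46, edgeR, adjusted p = 0.3705). Zbp1, a sensor of Z-form nucleic acid that can start cell death, was at 11.9, 13.4 and 12.2 CPM against 19.7, 24.2 and 14.6 CPM (-0.61). The 3 members above 0 were Mx2 (0.05), Mx1 (0.04) and Irf9 (0.02). Ifitm2 stood at 916, 944 and 819 CPM against 883, 914 and 886 CPM, with no shift (0.00 ± 0.08).

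The lean in stroma was carried unevenly by the libraries. Saline library 2 was the highest of the 6 for 29 of 35 members, against 18.1% of all genes, and tropicamide library 2 was the lowest for 19 of 35, against 10% of all genes. The median member stood 0.36 above its own mean of the 6 libraries in saline library 2 and 0.28 below it in tropicamide library 2, whereas the other 4 libraries lay between -0.08 and 0.03. Without saline library 2, 26 of 36 tested members were below 0 and the median was -0.12, and 14 did not overlap in the lower direction, a pattern then held by 14.2% of all genes. Without tropicamide library 1 all 35 of 35 members were below 0. Leaving out tropicamide library 3 gave 257 called genes, 3 of them members and all lower: Gbp2 (-0.99), Parp14 (-0.54) and Rnf213 (-0.52).

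**Figure D3:**
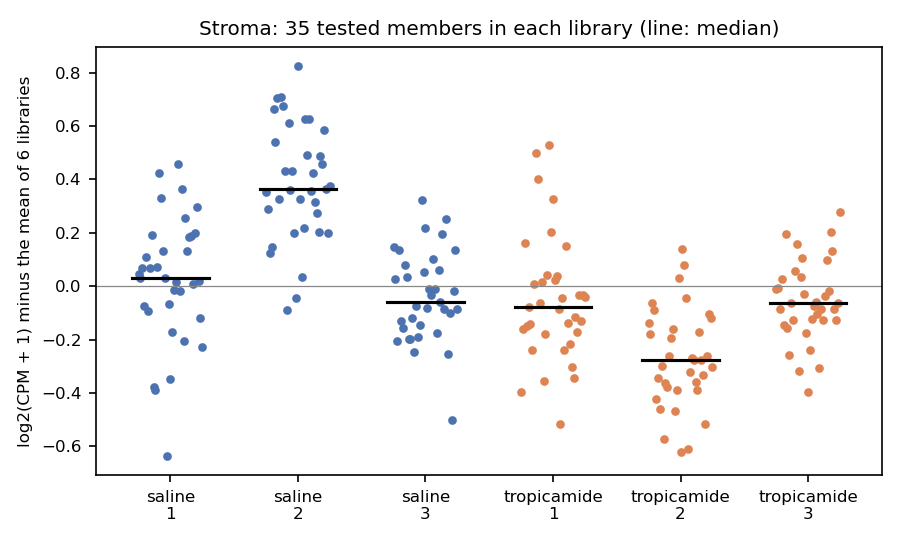
Level of each tested interferon-stimulated gene in stroma relative to its own mean over the 6 libraries, in log2(CPM + 1), with 1 point per gene, 1 column per library and a bar at the median. Most points of saline library 2 lie above 0 (median 0.36) and most of tropicamide library 2 below 0 (median -0.28).

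Within the stroma, the lean was present in fibroblast-like cells (29 of 33 members below 0, against 49.1% of all genes, median -0.38) and in the Smoc1 class (25 of 32, against 50.9%, median -0.29). It was smaller in the Wnt6 class (19 of 29, against 50.7%, median -0.14). edgeR called no member in any of the 3 (0%, 0% and 0.0669% of all genes). At an unadjusted p under 0.05 in edgeR there were 12, 12 and 0 members, beside 1588 of 13728, 706 of 9818 and 646 of 8972 genes. DESeq2 called 5, 1 and 0 members, beside 138, 22 and 16 genes. Rnf213 stood at 64.5, 73.5 and 105 CPM against 141, 154 and 136 CPM in fibroblast-like cells (-0.83 ± 0.16, edgeR, adjusted p = 0.1618) and at 157, 143 and 142 CPM against 168, 155 and 126 CPM in the Smoc1 class (0.00). The Gbp2 change was below 0 in both. Fibroblast-like cells had 31.6, 36.4 and 47.3 CPM against 78.5, 84.0 and 61.7 CPM, without overlap (-0.95 ± 0.16). In the Smoc1 class the change was -0.60 ± 0.22, and the groups overlapped. Whether the classes differed was not tested.

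Of the 98 pathway genes, 77 could be tested in stroma, 0 passed in edgeR, and 67 were below 0 (median -0.21), against 48.1% of all genes. Among them Cxcl10, a chemokine that draws T cells and is induced by both kinds of interferon, stood at 180, 182 and 261 CPM after tropicamide and at 350, 336 and 339 CPM after saline (-0.72 ± 0.14, edgeR, adjusted p = 0.1537). The saline pools were nearly equal and above all tropicamide pools. The interferon gamma receptor gene Ifngr1 (0.12) lay slightly above 0. The stromal sums also carried retinal pigment epithelium markers at 200.1, 218 and 202 CPM after tropicamide and at 41.2, 77.6 and 108 CPM after saline, and their part in the stromal values was not tested.

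In vessels, the level of the program was high and no change passed. Of 11608 genes 0 were called (0%), with 683 at an unadjusted p under 0.05 in edgeR and 11 called by DESeq2. Of 34 members tested 0 were called by either tool, with 5 at an unadjusted p under 0.05 in edgeR. The change was below 0 for 23 of 34 members, against 5803 of the 11608 genes (median -0.11). Groups did not overlap for 4 members, against 12.0% of all genes, and of these 3 were lower (5.83% of all genes) and 1 higher (6.16%). Without tropicamide library 3, 15 of 36 tested members did not overlap in the lower direction, a pattern then held by 11.1% of all genes. Without each of the other libraries, 3 to 6 of the 34 or 36 tested members did so, against 9.32% to 13.9% of all genes.

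Mx2, a dynamin-like GTPase that restricts viruses, had higher values after tropicamide, but the change did not pass. It stood at 36.4, 44.8 and 55.1 CPM after tropicamide and at 23.0, 19.96 and 23.3 CPM after saline. All 3 tropicamide pools were above the saline pools, which rested on 20, 10 and 70 UMIs, and the change was 0.98 ± 0.20 (edgeR, adjusted p = 0.3987). In its components Mx2 stood at 31.2, 25.7 and 36.8 CPM against 13.4, 24.9 and 19.3 CPM in endothelial-like cells, and at 66.5, 141 and 131 CPM against 77.4, 0 and 40.6 CPM in smooth muscle-like cells. Gbp4 stood at 8.2, 6.67 and 14.1 CPM against 14.96, 25.9 and 15.6 CPM in vessels (-0.94 ± 0.34, edgeR, adjusted p = 0.7036), without overlap. Gbp7 (-0.36) and Parp9 (-0.38) also did not overlap, while Gbp5, at 38.3, 41.0 and 43.0 CPM against 72.5, 39.9 and 67.6 CPM, had saline library 2 among the tropicamide pools (-0.64 ± 0.18, edgeR, adjusted p = 0.644).

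Irf1 differed little in vessels, at 676, 684 and 620 CPM against 694, 671 and 697 CPM (-0.06 ± 0.09). Isg15 stood at 154, 148 and 241 CPM against 209, 285 and 194 CPM (-0.33 ± 0.20), and Ifit1 at 90.8, 83.3 and 162 CPM against 125, 210 and 110 CPM (-0.36 ± 0.28). Irf7 stood at 49.2, 48.0 and 90.0 CPM against 78.2, 95.8 and 65.9 CPM (-0.34 ± 0.24). The same 2 pools were high for all 3 genes, tropicamide library 3 and saline library 2. The summed level of the 6 genes of the IFIT and ISG15 system showed this as well, at 362, 344 and 620 CPM after tropicamide and 471, 715 and 463 CPM after saline. Of the 98 pathway genes, 70 could be tested, 0 passed in edgeR, and 41 were below 0.

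**Figure D4:**
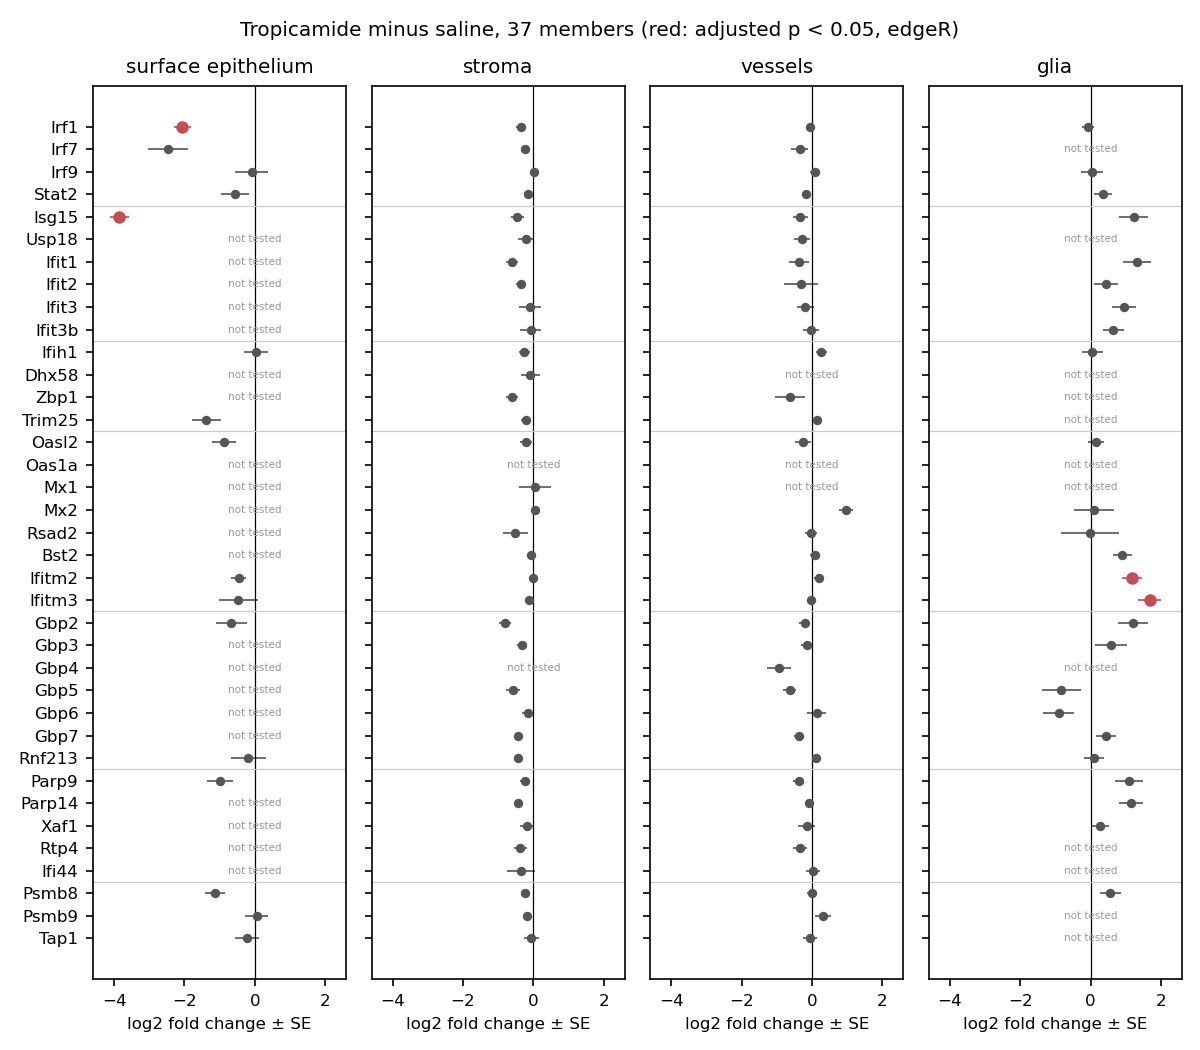
Change of each interferon-stimulated gene after tropicamide against saline (log2, edgeR) in surface epithelium, stroma, vessels and glia, with 1 line per gene, bars for the standard error and red points for an adjusted p under 0.05. The red points are Isg15 and Irf1 in surface epithelium (-3.85 and -2.06) and Ifitm3 and Ifitm2 in glia (1.68 and 1.17).

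In glia, Ifitm3 and Ifitm2 were higher after tropicamide, in sums whose makeup also differed between groups. Of 7991 genes 539 were called (6.75%), 336 higher (4.20%) and 203 lower (2.54%). Of 25 members tested 2 were called, both higher. The change was below 0 for 4 members, against 50.2% of all genes, and the median was 0.45. The tropicamide values lay above the saline values without overlap for 8 members, Isg15, Ifit1, Ifit3b, Bst2, Ifitm2, Ifitm3, Parp14 and Psmb8, a pattern held by 13.3% of all genes (25.9% in either direction and 12.5% in the lower one). Without tropicamide library 1, 2 or 3 the genes called came to 232, 267 and 264, and without saline library 1, 2 or 3 to 154, 290 and 997. No member was called without tropicamide library 1, 1 without tropicamide library 2 or saline library 1, and 9 without saline library 3.

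Ifitm3 stood at 865, 381 and 731 CPM after tropicamide and at 125, 164 and 325 CPM after saline. The 3 tropicamide pools were all above the 3 saline pools, tropicamide library 2 and saline library 3 being the closest, with means of 659 ± 249.9 and 204 ± 106 CPM (SD, n = 3 each). The change was 1.68 ± 0.32 (edgeR, adjusted p = 0.006783), and without tropicamide library 1 it did not pass (1.43, edgeR, adjusted p = 0.05166). Ifitm2, its close relative, stood at 128, 152 and 102 CPM against 36.7, 46.4 and 88.5 CPM, without overlap (1.17 ± 0.29, edgeR, adjusted p = 0.02284). It did not pass without tropicamide library 1 or 2 or saline library 1 or 2 (edgeR, adjusted p = 0.08149, 0.1069, 0.1395 and 0.07673). Parp14 stood at 107, 88.5 and 134 CPM against 21.0, 66.3 and 65.9 CPM (1.15 ± 0.33, edgeR, adjusted p = 0.05032) and narrowly missed the threshold. Isg15 stood at 137, 45.3 and 43.8 CPM against 23.6, 33.1 and 41.8 CPM (1.22 ± 0.40, edgeR, adjusted p = 0.08057), and only tropicamide library 1 stood clearly apart. Ifit1 stood at 107, 88.5 and 76.0 CPM against 23.6, 11.05 and 70.8 CPM (1.32 ± 0.40, edgeR, adjusted p = 0.06022), with saline library 3 close to the tropicamide pools. Gbp2, at 40.3, 72 and 32.1 CPM against 14.4, 11.05 and 37.0 CPM, and Rnf213, at 75.8, 94.7 and 64.3 CPM against 43.3, 92.8 and 90.1 CPM, overlapped (1.21 and 0.11). Irf1 overlapped at 216, 251 and 234 CPM and 218, 230 and 288 CPM (-0.07).

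The Schwann cell-like cells made up 25 of 97, 23 of 99 and 19 of 106 glial cells after tropicamide and 6 of 152, 2 of 71 and 13 of 114 after saline. They carried more of the program than Müller glia-like cells, with a median summed level of 5466 CPM against 1052 CPM, and averaged 1710 CPM for Ifitm3 and 270.1 CPM for Ifitm2, on 2 to 25 cells per library. Fibroblast markers in the glial sums were also higher after tropicamide, at 1152, 2323 and 662 CPM against 221, 249 and 576 CPM. The glial values are therefore given again for the Müller glia-like cells alone.

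In Müller glia-like cells, the radial glia that span the retina, Irf1 was lower and Ifitm3 higher after tropicamide. Of 7156 genes 135 were called (1.89%), and of 15 members tested 2 were called, with a member median of 0.05. Irf1 stood at 90.2, 122 and 87.6 CPM after tropicamide and at 204, 221 and 210 CPM after saline. The saline pools were nearly equal and far above the tropicamide pools, with means of 100.03 ± 19.3 and 212 ± 8.64 CPM (SD, n = 3 each), and the change was -1.06 ± 0.20 (edgeR, adjusted p = 0.01182). Ifitm3 stood at 237, 160 and 180 CPM against 70.8, 105 and 107 CPM, without overlap (1.05 ± 0.22, edgeR, adjusted p = 0.02247). Ifitm2 overlapped at 60.1, 81.5 and 48.2 CPM and 27.8, 41.1 and 48.8 CPM (0.75, edgeR, adjusted p = 0.2939), and Parp14 turned to -0.48.

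These Müller values came with differences in depth and in other markers. The median depth was 1545, 1974.5 and 1190 UMIs per cell after tropicamide and 3312.5, 7417 and 4939 after saline, and fibroblast markers were at 1032, 2029 and 314 CPM against 168, 240 and 276 CPM. Rod markers were at 3526, 3475 and 5804 CPM against 2129, 2560 and 2637 CPM, and Schwann markers overlapped between groups. Among cells with at least 2000 UMIs, Irf1 still passed (edgeR, adjusted p = 0.04031), and Ifitm3 did not (0.90, edgeR, adjusted p = 0.1714). Without the highest cell of each library Irf1 passed (edgeR, adjusted p = 0.005704), and Ifitm3 did not (0.81, edgeR, adjusted p = 0.06945). With doublets left in, Irf1 did not pass (-0.74, edgeR, adjusted p = 0.1654). Left-out libraries mattered too: Irf1 missed the threshold without tropicamide library 3 or saline library 1 (edgeR, adjusted p = 0.05054 and 0.05272), and Ifitm3 without tropicamide library 1 or 3 or saline library 1 (edgeR, adjusted p = 0.08897, 0.05514 and 0.166). The genes called came to 34, 7 and 44 without tropicamide library 3, saline library 1 and saline library 2. The part of fibroblast RNA in the Ifitm3 difference was not tested.

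**Figure D5:**
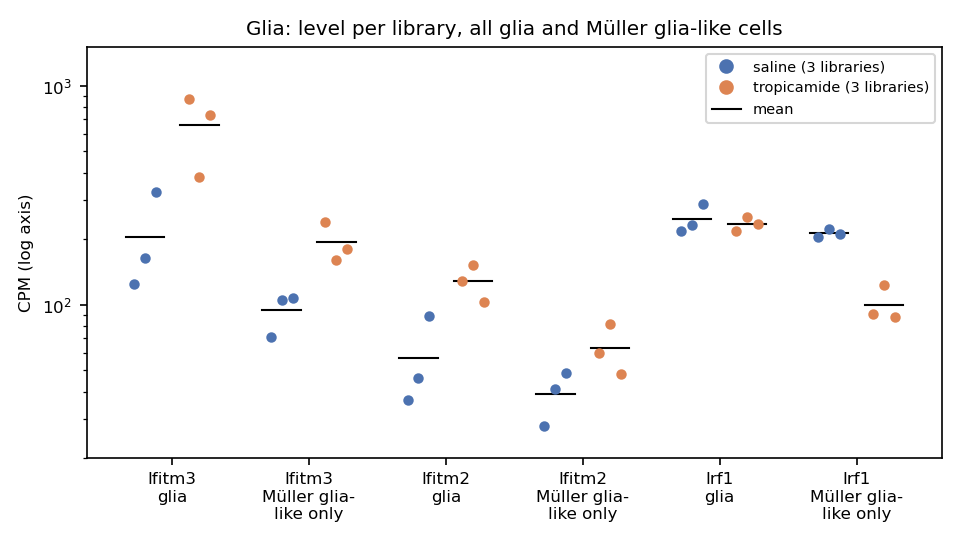
Levels of Ifitm3, Ifitm2 and Irf1 in all glia and in Müller glia-like cells alone, in CPM (log axis), with 1 point per library, blue for saline and orange for tropicamide, and a line at the mean. Ifitm3 lies higher after tropicamide in both sets of cells, and the Irf1 points overlap in all glia and separate in Müller glia-like cells.

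Of the 98 pathway genes, 37 could be tested in all glia, where 4.20% of all genes were called higher. Of the 37, 6 passed, all higher. They included Ifnar2, a chain of the type I interferon receptor, at 185, 154 and 134 CPM against 76.1, 72.9 and 72.4 CPM (1.10, edgeR, adjusted p = 0.004727), with both groups tight and well apart. Ifi27l2a, a small interferon-induced gene, stood at 450.1, 121 and 272 CPM against 43.3, 30.9 and 114 CPM (2.12, edgeR, adjusted p = 0.01023). The other 4 were Ifi27, B2m, H2-D1 and Rigi, with changes between 0.87 and 1.14. DESeq2 did not call Ifi27l2a (adjusted p = 0.07414) or Rigi (0.1585). Of these 6, 4 could be tested in Müller glia-like cells alone, and none passed. The part of Schwann cell-like cells in the glial differences was not tested. In Müller glia-like cells Ifnar2 gave 0.26 (edgeR, adjusted p = 0.7253), Ifi27 0.01, B2m -0.19 and H2-D1 0.06, each with overlapping groups, and Ifi27l2a and Rigi were too low to be tested. In Müller glia-like cells alone 28 pathway genes could be tested and 1 passed, where 1.89% of all genes were called. This was Socs3, at 317, 370 and 285 CPM after tropicamide and 915, 639 and 656 CPM after saline (-1.18 ± 0.18, edgeR, adjusted p = 0.001575). Socs3 was thus lower in surface epithelium and in Müller glia-like cells, both by their own test, and did not pass in all glia (-0.23, edgeR, adjusted p = 0.4848), stroma (-0.45) or vessels (-0.10).

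The difference of the tropicamide change between 2 tissues was tested within libraries with limma for the 6 pairs of tissues. The change of Isg15 was further down in epithelium than in stroma by -3.24 ± 0.36 (1 of 16 members and 0.0493% of all genes called, limma, adjusted p = 0.03748). It was further down than in vessels by -3.32 ± 0.35 (1 of 16 members, 0.102% of all genes, limma, adjusted p = 0.02388) and than in glia by -4.62 ± 0.57 (limma, adjusted p = 0.01384). Against glia 2 of 12 members passed (0.410% of all genes), the other being Parp9, an ADP-ribosyltransferase family member that works with the ubiquitin ligase Dtx3l, by -1.97 ± 0.29 (limma, adjusted p = 0.02366). With the highest Isg15 cell of every library taken out, none of the 3 Isg15 differences passed (-1.93, -2.01 and -3.31, limma, adjusted p = 0.6746, 0.7793 and 0.2001). With single libraries left out, some of these calls were lost. Against stroma and against vessels, Isg15 passed without saline library 2 and missed without any other library (limma, adjusted p from 0.07438 to 0.2172), and against glia it missed without saline library 1 (limma, adjusted p = 0.1016). The call against stroma was also lost with a prior count of 0.5 (limma, adjusted p = 0.06879). With the library number as a block, the calls against stroma and vessels were lost (limma, adjusted p = 0.1008 and 0.06238), and that against glia passed (0.01983). Parp9 missed without tropicamide library 1 or 2 or saline library 1 or 2 (limma, adjusted p from 0.08143 to 0.1646). The Irf1 difference did not pass against stroma (-1.57, limma, adjusted p = 0.1753), vessels (-1.88, limma, adjusted p = 0.1846) or glia (-1.87, limma, adjusted p = 0.05002). Among the pairs without epithelium no member passed: 0 of 33 for stroma and vessels (0% of all genes), 0 of 25 for stroma and glia (1.07%) and 0 of 25 for vessels and glia (0.0533%).

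Rods and retinal pigment epithelium-like cells, outside the 4 tissues, were also tested. In rods, 19 members could be tested and edgeR called 2 (10.1% of all genes), both higher (5.53%), while DESeq2 called neither: Ifitm2 at 23.8, 27.3 and 14.5 CPM against 9.79, 6.25 and 15.7 CPM, and Ifitm3 at 29.1, 31.9 and 21.2 CPM against 13.5, 8.75 and 22.3 CPM. Both overlapped, with saline library 3 among the tropicamide pools. The number of members called was 0 without tropicamide library 1 or 2 or saline library 1 or 2, and 4 without saline library 3. The share of all genes called in those fits was not kept. In retinal pigment epithelium-like cells 6 members could be tested and edgeR called 0, against 0.118% of all genes. At an unadjusted p under 0.05 edgeR had 2 of the 6 members, beside 338 of 5106 genes, and DESeq2 called 0 members and 4 genes. Near-identical copies make some members uncertain. Of the 50-base words in a transcript, the share also found in another gene was 59.7% for Gbp6, 57.6% for Oas1a, 51.2% for Ifit3, 48.5% for Ifitm2 and 45.0% for Ifit3b.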

How the data were processed

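Single-cell RNA sequencing of posterior eye cups was deposited as 1 matrix of counts (UMIs per gene and barcode) per library. Per the submitters' processing notes, the authors used Cell Ranger 8.0.1 with STAR and GRCm39. The deposited counts were not normalized, per the file headers and the whole-number values. All 33696 genes were kept, and the 37 symbols matched 1 gene each.

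Barcodes with under 500 UMIs, under 300 genes or over 20% mitochondrial UMIs were removed (416), then 5922 doublets called from 2 simulated doublets per barcode at 0.8% per 1000 barcodes. Cells were clustered with Leiden (leidenalg 0.10.2, resolution 1) on 2000 variable genes without the members and pathway genes, 30 principal components and 20 neighbours. Of 52 clusters, 47 were named from marker lists, which leaves 878 cells unnamed. Names were rebuilt here, not taken from the authors.

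Counts were summed per library and class. edgeR 4.0.16 (TMM scaling, filterByExpr, quasi-likelihood test) was fitted to all genes of a tissue with Benjamini-Hochberg adjustment over all of them and a threshold of 0.05. DESeq2 1.42.0 was an alternative. Differences between tissues used limma 3.58.1 on log2 CPM with a prior count of 2. Fold changes of low genes are pulled toward 0. The tests were tested on simulated data. Depth per epithelial sum was 373358 to 1483719 UMIs, so a gene near 5 CPM rested on few molecules.

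The members and the pathway and marker lists were chosen with earlier results of these data known. Values in every library were given by rule for the members past the threshold, or the 3 of smallest p per tissue, and for passing pathway genes, and other genes with values in the text were picked after their values were seen. The libraries share numbers 1 to 3, and the main tests did not pair them by number. An extraction text in the labels describes bone tissue and was not used. The alternatives were other size factors, no low-count filter, the library number as a block, other filters on cells and doublets, and each library left out. Alternatives added after seeing the data were Müller glia-like cells only, single clusters and sums without the highest cell of a gene.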

Additional observations from a re-analysis of the deposited data

Results flagged for a closer look

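The change of Isg15 after tropicamide differed between surface epithelium and each of the other 3 tissues by a limma test of the difference itself. It was -3.24 against stroma, -3.32 against vessels and -4.62 against glia, and in each case the epithelium had the lower change. None of these 3 passed without the highest Isg15 cell of each library, as given in the report. With the library number as a block, the calls against stroma and vessels were lost (limma, adjusted p = 0.1008 and 0.06238), and with a prior count of 0.5 the call against stroma was lost (0.06879).

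Parp9 changed by -0.98 in epithelium and by 1.10 in glia, and neither passed alone. The difference of -1.97 passed by limma. In epithelium Parp9 stood at 24.4, 24.7 and 22.0 CPM after tropicamide and at 52.9, 19.95 and 62.9 CPM after saline. In glia it stood at 56.9, 61.7 and 38.0 CPM against 23.6, 6.63 and 40.2 CPM. The groups overlapped in both tissues. The part of Schwann cell-like cells, which were more frequent in the glia after tropicamide, in that difference was not tested.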

How the results depend on the processing

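Counts are of genes or members past the threshold. Under alternatives other than DESeq2, gene counts were kept only for the tissues and Müller glia-like cells. A member count without a gene count beside it is not set against all genes and is no result about the members. With DESeq2, epithelium gave 160 genes and 4 members, stroma 205 and 4, vessels 11 genes and glia 342 genes. Fibroblast-like cells gave 138 genes and 5 members, the Smoc1 class 22 and 1, and rods 1362 and 0. Without a low-count filter, epithelium gave 530 genes and 7 members, stroma 351 and 4, vessels 150 and 2, glia 913 and 9, Müller glia-like cells 267 genes, fibroblast-like cells 9 members, the Smoc1 class 4 and smooth muscle-like cells 1. With each library left out in turn, genes and members ranged from 6 to 181 and 1 to 6 in epithelium, 0 to 257 and 0 to 3 in stroma, 154 to 997 and 0 to 9 in glia. Müller glia-like cells gave 7 to 143 genes and 0 to 2 members. Vessels ranged from 0 to 7 genes, and members ranged from 0 to 5 in fibroblast-like cells, 0 to 1 in the Smoc1 class and 0 to 4 in rods. Doublets kept gave 5 members in glia and 1 in rods. Müller glia-like cells gave 135 genes, and 31 with the stricter cell filter. Cells with at least 2000 UMIs gave 25 genes and 1 member there and 1 member in rods, and the deeper Müller cluster alone gave 32 genes and 1 member. Parp14 in glia reversed to -0.48 in Müller glia-like cells. The cause was not tested.

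For differences between tissues, a prior of 0.5 gave 1 gene and 0 members for epithelium against stroma, 4 genes against vessels and 15 against glia, and 22 genes for stroma and 0 for vessels against glia. Leaving out libraries gave 0 to 11 genes and 0 to 1 members, 0 to 6 and 0 to 1, 3 to 76 and 0 to 3, 2 to 252 and 0 to 5, and 0 to 66 and 0 to 1, in that order.

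Same-numbered deviations correlated at -0.255 to 0.124. With 3 libraries per group these values cannot decide whether the shared numbers pair the libraries. With the replicate block, epithelium gave 164 genes and 4 members, glia 5 members and rods 0. The glia and rod counts stand without a count of all genes and are no result about the members. The blocked differences gave 2 genes and 0 members for epithelium against stroma, 0 and 0 against vessels, 52 genes against glia, and 0 genes for vessels against glia.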
